A study of Mus musculus with 18 samples.

Results

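The genes examined were 10 genes of purinergic signalling and ATP release, taken by name from a table of 21923 genes: the receptor genes P2ry1, P2rx4, P2rx7 and Adora1, the release genes Panx1, Calhm2 and Slc17a9, and the ectoenzyme genes Entpd1, Entpd2 and Nt5e. All 10 were listed in the table, and 9 had enough counts to be tested between genotypes. Slc17a9 did not pass the filter on low counts.

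RNA was measured in cortical immunoprecipitates of translating ribosome affinity purification (TRAP), in which ribosomes carrying EGFP-tagged L10a are pulled down together with their mRNA. The libraries labelled cKO came from mice labelled GLUT1 flox/flox;GLAC +/wt, which the study describes as carrying floxed Slc2a1 (the gene of glucose transporter 1, GLUT1) and the tamoxifen-inducible CreERT2 under the GLAST promoter. The libraries labelled control came from mice labelled GLAC +/wt, which carry the same CreERT2 with unfloxed Slc2a1. All samples are labelled male, cortex, C57BL/6 and homecage. Both groups received a Cre-dependent viral EGFP-L10a under the human GFAP promoter, so the tag is read from cells in which this promoter and Cre were both active. In the study, mice were given tamoxifen at 8 to 10 weeks of age and experiments of all kinds followed 60 to 90 days later. For TRAP, tamoxifen came after the virus and the RNA was collected 60 days after tamoxifen. Of the 18 columns in the table, 7 could be tied to a genotype and fraction through sample names given by the study, 3 control (AstroTRAP_11, AstroTRAP_15 and AstroTRAP_19) and 4 cKO (AstroTRAP_1, AstroTRAP_5, AstroTRAP_9 and AstroTRAP_17). Values below are listed in this order. The columns of whole cortex input could not be identified by name, so enrichment of these genes over input was not analysed here.

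ATP released by cells acts on ligand-gated P2X channels and on G protein-coupled P2Y receptors. Ectonucleotidases on the cell surface then break it down stepwise to ADP, AMP and adenosine, which signals through adenosine receptors. In the cortex astrocytes both release and sense these nucleotides, and microglia, neurons and cells of the vessel wall express many of the same genes.

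The total estimated count was 19294382 to 40734343 in the 3 control libraries and 12570309 to 24173901 in the 4 cKO libraries, so 3 counts correspond to 0.0762 CPM (counts scaled to library size, with TMM factors) in the deepest library and 0.222 CPM in the shallowest. All 12 astrocyte markers examined were present in every library, at a summed 30800 to 46600 CPM in control and 30600 to 58500 CPM in cKO libraries. All 9 neuronal markers were present as well (3340 to 4340 CPM in control, 2890 to 4390 CPM in cKO), as were all 9 oligodendrocyte markers (757 to 856 and 465 to 892 CPM). Of 9 microglial markers in the table, 8 were present in every library and Itgam was at 0 in AstroTRAP_5 and AstroTRAP_17. Their sum was 62.9 to 99.0 CPM in control and 53.6 to 116 CPM in cKO libraries. The 9 endothelial markers summed to 16.6 to 25.4 and 17.1 to 34.3 CPM, with Pecam1, Kdr, Cdh5, Tek and Slco1a4 at 0 in at least 1 library. The astrocyte sum was thus the largest of the marker sums in every library, and markers of other cell types were present beside it. These lists differ in length and input was not analysed, so the sums do not measure purity. The study also left out immunoprecipitates in which neuronal genes were high, so the neuronal sums come from libraries kept after that choice. The labels list 5 control and 4 cKO TRAP samples, while 3 control and 4 cKO libraries were used. By these numbers the labelled TRAP samples not used were all control, and the labels give no reason for each. What this did to the comparison of genotypes was not tested. Fewer cells of a type and less RNA per cell cannot be told apart in such bulk samples. The gene-level count of Slc2a1 gave 59.5 ± 2.02 CPM (SD, n = 3) in control and 59.0 ± 2.30 CPM (SD, n = 4) in cKO libraries, between 56.4 and 61.9 CPM in every sample. This count covers the whole gene and cannot separate the exons that Cre removes, so it does not check the genotype labels. The study counted reads over a set of Slc2a1 exons on their own and reported them as reduced in cKO immunoprecipitates.

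None of the 9 tested genes passed the threshold between genotypes by the quasi-likelihood test of edgeR, adjusted by Benjamini-Hochberg over all 13296 genes tested (adjusted p = 0.9996 for each). Over all genes 6 passed, or 0.0451%. At an unadjusted p under 0.05 the count was 0 of the 9 genes, against 2.58% of all genes, and it was also 0 with edgeR's exact test and with DESeq2. The estimated log2 fold change, cKO against control, was above 0 for 8 genes and below 0 for 1, with a median of 0.19 where the median over all genes tested was 0.012. The width of the 95% interval separated the genes more than the estimates did, from 0.58 on the log2 scale for Entpd2 to 5.26 for P2ry1. For P2rx4, Entpd2 and Adora1 the interval lay within 1.44-fold in the upward direction and within 0.715-fold in the downward direction. For P2ry1, Panx1 and Nt5e changes of several fold in either direction were not detectable at this depth and spread.

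**Figure D1:**
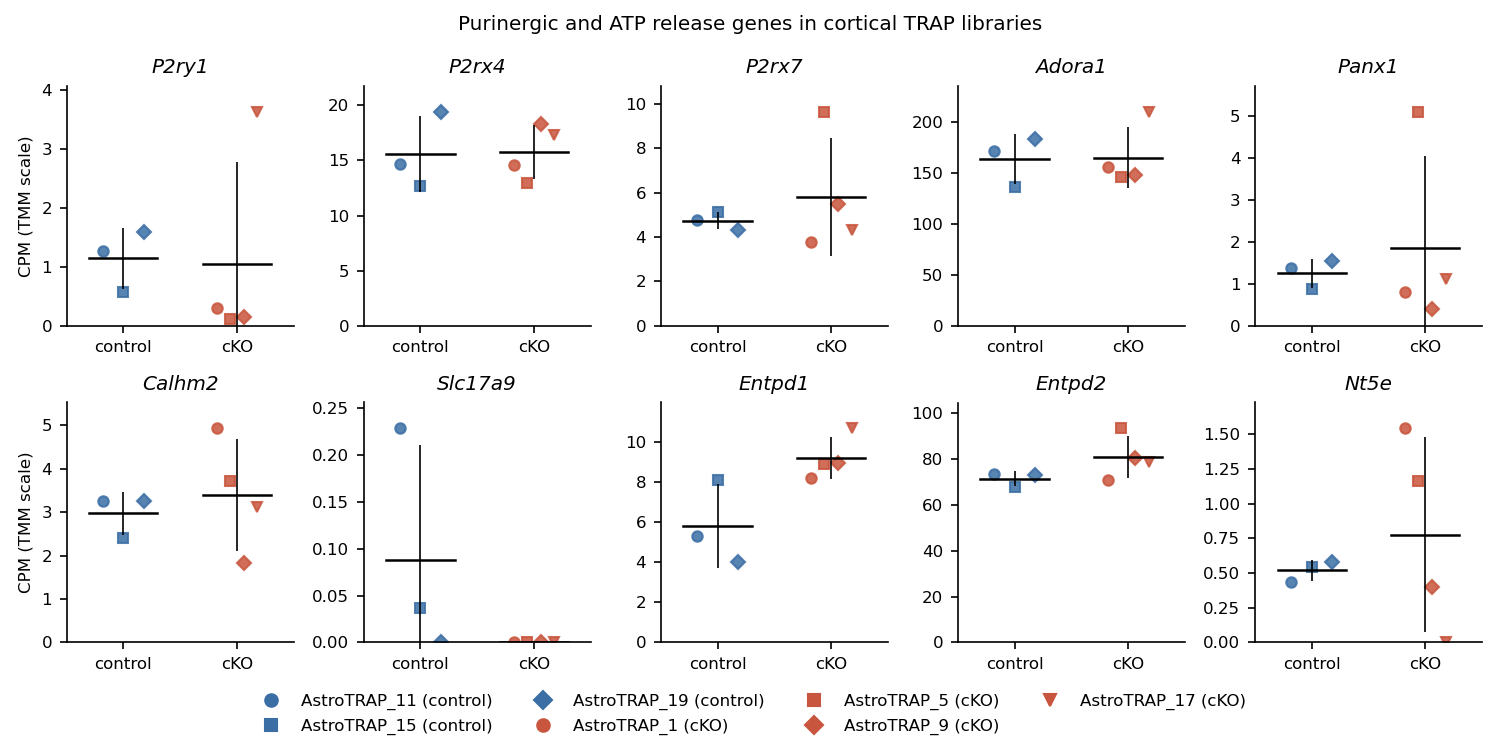
CPM (TMM scale, linear axis from 0) of the 10 genes in each TRAP library, blue for control (n = 3) and red for cKO (n = 4), with symbols naming the library, horizontal bars for the mean and vertical bars for 1 SD, which are cut at 0. Entpd1 is the gene whose 4 cKO libraries all lie above the 3 control libraries, and single cKO libraries stand apart for P2ry1 and Panx1. Of all genes tested, 5.11% had groups that did not overlap.

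Among the receptors, Adora1 and P2rx4 were measured most steadily and were at nearly equal mean levels in both genotypes. Adora1, on chromosome 1 of GRCm38.p6 from 134199215 to 134235457, encodes the A1 adenosine receptor, which couples to inhibitory G proteins. It had 171, 137 and 183 CPM in the control libraries and 156, 146, 148 and 209.9 CPM in the cKO libraries. The groups overlapped throughout, with AstroTRAP_17 the highest and control library AstroTRAP_15 the lowest. The log2 fold change was 0.011 (SE 0.16), with a 95% interval from 0.786-fold to 1.29-fold. The sign of this estimate near 0 was not stable, since it was -0.13 without AstroTRAP_17 (unadjusted p = 0.385 by edgeR), -0.11 without AstroTRAP_15 and -0.0030 with upper-quartile scaling.

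P2rx4 encodes an ATP-gated cation channel and lies on chromosome 5 from 122707518 to 122729739. Its levels were 14.7, 12.65 and 19.4 CPM in control and 14.6, 12.9, 18.3 and 17.3 CPM in cKO libraries. Each genotype held both low and high libraries, and the log2 fold change was 0.019 (SE 0.23). P2rx7, on the same chromosome from 122643927 to 122692336, ends 15181 bases before the start of P2rx4 and encodes an ATP-gated channel that opens at high ATP concentrations and is prominent in microglia. It had 4.78, 5.13 and 4.33 CPM in control and 3.76, 9.64, 5.46 and 4.30 CPM in cKO libraries. AstroTRAP_5 was the high library, at 249 counts, and the other 3 cKO libraries lay around the control values. The log2 fold change of P2rx7 was 0.29 (SE 0.41) with all libraries and -0.072 without AstroTRAP_5. The count of P2rx4 relative to P2rx7 within a library was 2.47 to 4.49 in control libraries, 3.35 to 4.03 in the cKO libraries other than AstroTRAP_5, and 1.34 in AstroTRAP_5. This ratio does not depend on the scaling of libraries.

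P2ry1, on chromosome 3 from 61002785 to 61008982, encodes a P2Y receptor for ADP that acts through Gq and intracellular calcium. Its counts were low and uneven, at 50, 16 and 33 in control and 5, 3, 3 and 49 in cKO libraries. On the scale of CPM these were 1.27, 0.582 and 1.59 in control and 0.309, 0.116, 0.149 and 3.63 in cKO libraries. Thus 3 cKO libraries lay below every control library, 2 of them at the floor of 3 counts, whereas AstroTRAP_17 lay above every control library. The lowest and highest libraries differed by 31.3-fold, and the coefficient of variation over the 7 libraries was 115%, where counting error alone gives 37.8%. With all libraries the log2 fold change was -0.15 (SE 1.19). Without AstroTRAP_17 it was -2.59 (unadjusted p = 0.0128, adjusted p = 0.999, both by edgeR). Without any other single library it lay between -0.47 and 0.23. The summed oligodendrocyte precursor markers, 3 in number, were 8.87, 6.00 and 5.87 CPM in control and 7.10, 2.36, 3.33 and 9.71 CPM in cKO libraries. Cspg4 among them was at 0 in AstroTRAP_19, AstroTRAP_5 and AstroTRAP_17. AstroTRAP_17 was thus the highest and AstroTRAP_5 the lowest library for this sum and for P2ry1 alike. The orders differed elsewhere, with AstroTRAP_19 the lowest control library for the sum and the highest for P2ry1. The part of such cells in the result was not tested.

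The release genes came next. Panx1, on chromosome 9 from 15005785 to 15045478, encodes pannexin 1, a membrane channel through which ATP can leave the cell. It had 54, 24 and 32 counts in control libraries and 13, 132, 8 and 15 counts in cKO libraries. As CPM these were 1.37, 0.873 and 1.54 in control and 0.802, 5.11, 0.397 and 1.11 in cKO libraries. AstroTRAP_5 lay far above all others, and of the remaining cKO libraries 2 lay below every control library and AstroTRAP_17 lay among them. The log2 fold change was 0.57 (SE 0.90) and turned to -0.72 without AstroTRAP_5 (unadjusted p = 0.375 by edgeR).

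AstroTRAP_5 was also the library with the highest summed markers of neurons (4392 CPM, against 2887 to 4378 CPM in the others) and oligodendrocytes (892 against 465 to 856 CPM). It was likewise the library with the highest summed markers of microglia, at 116 CPM against 53.6 to 102 CPM in the others. The same held for endothelial cells (34.3 against 16.6 to 25.4 CPM) and mural cells (61.2 against 39.4 to 56.1 CPM). Of this mural sum 39.1 CPM was Rgs5, which had 7.63 to 16.7 CPM in the others. The summed oligodendrocyte precursor markers were instead lowest in AstroTRAP_5, at 2.36 CPM against 3.33 to 9.71 CPM. The high Panx1 and P2rx7 values of this library came with these marker levels, and the part of other cells in them was not tested. Of the 5 mural markers Kcnj8 was at 0 in AstroTRAP_17, and the other 4 were present in every library.

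Calhm2, on chromosome 19 from 47132232 to 47138294, encodes a calcium homeostasis modulator channel protein for which a part in ATP release by astrocytes has been described. It had 3.25, 2.40 and 3.27 CPM in control and 4.94, 3.72, 1.84 and 3.11 CPM in cKO libraries. The cKO libraries spanned a wider range than the control libraries on both sides, with a log2 fold change of 0.19 (SE 0.49). Slc17a9, on chromosome 2 from 180724576 to 180742280, encodes the vesicular nucleotide transporter that loads ATP into vesicles. It had 9 counts in AstroTRAP_11, the deepest library, 1 in AstroTRAP_15, and 0 in AstroTRAP_19 and in all 4 cKO libraries. A count of 0 allows up to 0.116 to 0.222 CPM in a single cKO library, which is not a limit for the 4 together. This limit covers counting error only. The control mean of 0.0883 CPM rested mostly on the 9 counts in AstroTRAP_11. Without the count filter the log2 fold change was -4.19 (unadjusted p = 0.0739 by edgeR). It did not pass the adjusted threshold, so a difference was not shown.

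The ectoenzymes include the single gene of the 10 whose genotype groups did not overlap. Entpd1, on chromosome 19 from 40612366 to 40741602, encodes CD39, which hydrolyses ATP and ADP to AMP and is abundant on microglia and endothelium. It had 5.29, 8.07 and 3.99 CPM in control libraries and 8.21, 8.90, 8.94 and 10.7 CPM in cKO libraries. All 4 cKO libraries lay above the 3 control libraries, although AstroTRAP_15 of the control group was close to AstroTRAP_1. Mean levels were 5.78 ± 2.085 CPM (SD, n = 3) and 9.18 ± 1.05 CPM (SD, n = 4), a log2 fold change of 0.66 (SE 0.32) with a 95% interval from 0.971-fold to 2.59-fold. The unadjusted p was 0.063 and the adjusted p 0.9996, both by edgeR. Of all genes tested, 5.11% had groups that did not overlap in either direction, and 2.35% had every cKO library above every control library. Entpd1 was estimated higher in cKO libraries in each of the 14 alternative fits, at 0.46 without AstroTRAP_19 and 0.98 without AstroTRAP_15 on the log2 scale, with unadjusted p-values from edgeR of 0.212 and 0.0213.

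CD39 is found on microglia and in the vessel wall, so the marker sums of those cells are given beside Entpd1. Microglial markers summed to 62.9, 70.7 and 99.0 CPM in control and 65.5, 116, 53.6 and 102 CPM in cKO libraries, and the groups overlapped. Endothelial markers summed to 16.6, 19.6 and 25.4 CPM in control and 19.7, 34.3, 17.1 and 20.5 CPM in cKO libraries, and these overlapped too. Mural markers summed to 39.4, 46.1 and 45.3 CPM in control and 42.7, 61.2, 46.55 and 56.1 CPM in cKO libraries. The 3 libraries highest for the mural sum, AstroTRAP_5, AstroTRAP_17 and AstroTRAP_9, were also the 3 highest for Entpd1. AstroTRAP_1 was below 2 control libraries for the mural sum and above every control library for Entpd1. In AstroTRAP_5 Rgs5 alone made up 39.1 of the 61.2 CPM, and it had 7.63 to 16.7 CPM in the other libraries. Of the 9 microglial markers tested, 7 were estimated higher and 2 lower in cKO libraries. For endothelial cells 4 of 6 tested markers were estimated higher and 2 lower. Of the 4 mural markers tested, 1 was estimated higher and 3 lower. None of these markers passed the adjusted threshold. The part of these cells in the Entpd1 values was not tested.

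Entpd2, on chromosome 2 from 25395874 to 25401323, encodes an ectoenzyme that prefers ATP over ADP. It was one of the most evenly measured genes of the group, at 73.5, 67.7 and 73.0 CPM in control and 70.9, 93.4, 80.3 and 78.8 CPM in cKO libraries. Of the 4 cKO libraries, 3 lay above every control library and AstroTRAP_1 lay among them. The log2 fold change was 0.18 (SE 0.13, unadjusted p = 0.198 by edgeR), with a 95% interval from 0.927-fold to 1.38-fold. Relative to Entpd1 within a library, the Entpd2 count was 13.9, 8.39 and 18.3 in control libraries and 8.64, 10.5, 8.98 and 7.38 in cKO libraries. The groups overlapped for this ratio through AstroTRAP_15. Nt5e, on chromosome 9 from 88327609 to 88372089, encodes CD73, which converts AMP to adenosine. It had 17, 15 and 12 counts in control and 25, 30, 8 and 0 counts in cKO libraries. The highest and the lowest libraries were therefore both labelled cKO, and the log2 fold change of 0.59 had an SE of 1.14.

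**Figure D2:**
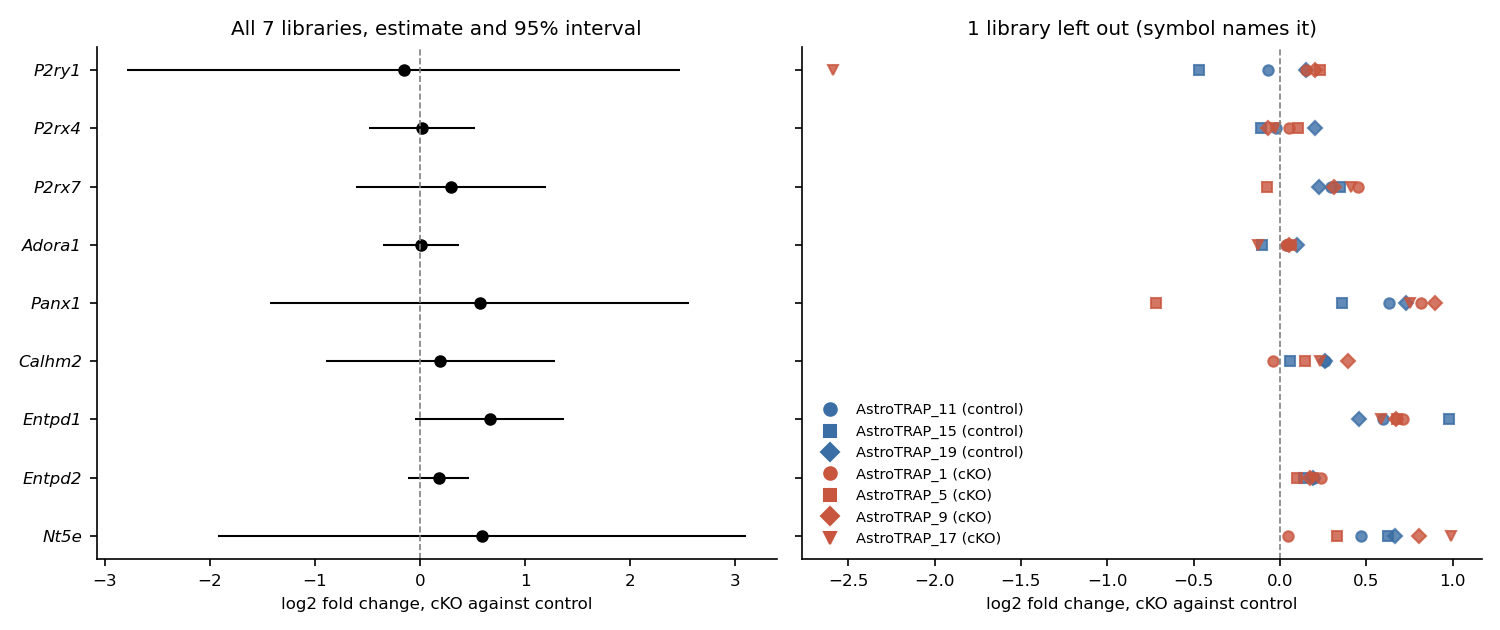
Log2 fold change of the 9 tested genes, cKO against control, with all 7 libraries and 95% intervals (left) and with each library left out in turn (right, symbols naming the library left out). All 9 intervals include 0, the estimate of P2ry1 moves to -2.59 without AstroTRAP_17, and that of Panx1 to -0.72 without AstroTRAP_5.

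Across the 7 libraries the genes did not share a common profile. The steadiest were Entpd2, Adora1 and P2rx4, with coefficients of variation of 11.1%, 15.5% and 16.9%, where counting error alone gives 2.50%, 1.70% and 5.51%. Calhm2, Entpd1 and P2rx7 followed at 30.5%, 29.8% and 37.0%. Nt5e, Panx1 and P2ry1 had 77.8%, 99.5% and 115%. Profiles were compared as log2 CPM with a prior of 0.5, centred on the mean of each gene. The smallest root mean square difference within the group was that of P2rx4 and Adora1, at 0.182 over the 7 libraries. This measure is small for any genes that vary little. P2rx4 and Adora1 themselves deviated from a flat profile by 0.219 and 0.199, so a shared profile was not shown. Over all genes tested, the profiles nearest to Adora1 were those of Elof1 and Sec61g (0.0452 and 0.0564), and those nearest to P2rx4 were Hace1 and Ppp1r14c (0.0429 and 0.0575). Zfp592 was nearest to Entpd1 (0.103), and Arhgap35 and Rab28 were nearest to Entpd2 (0.0583 and 0.0599). RP23-349I9.6 and Ocstamp were nearest to P2rx7 (0.105 and 0.125), and Prpsap2 and Serpina3n to Calhm2 (0.142 and 0.174). The measure also grows with the deviation of the gene itself. That deviation was 0.768 for Panx1, 0.937 for P2ry1 and 0.607 for Nt5e, against 0.141 for Entpd2. For these uneven genes the nearest profiles were further away in this measure, with Sptb and Ppip5k2 for Panx1 (0.252 and 0.257), Mettl24 and Ganc for P2ry1 (0.289 and 0.292) and Ccdc160 and Phip for Nt5e (0.177 and 0.232). These are descriptions of 7 libraries in a table of many genes.

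**Figure D3:**
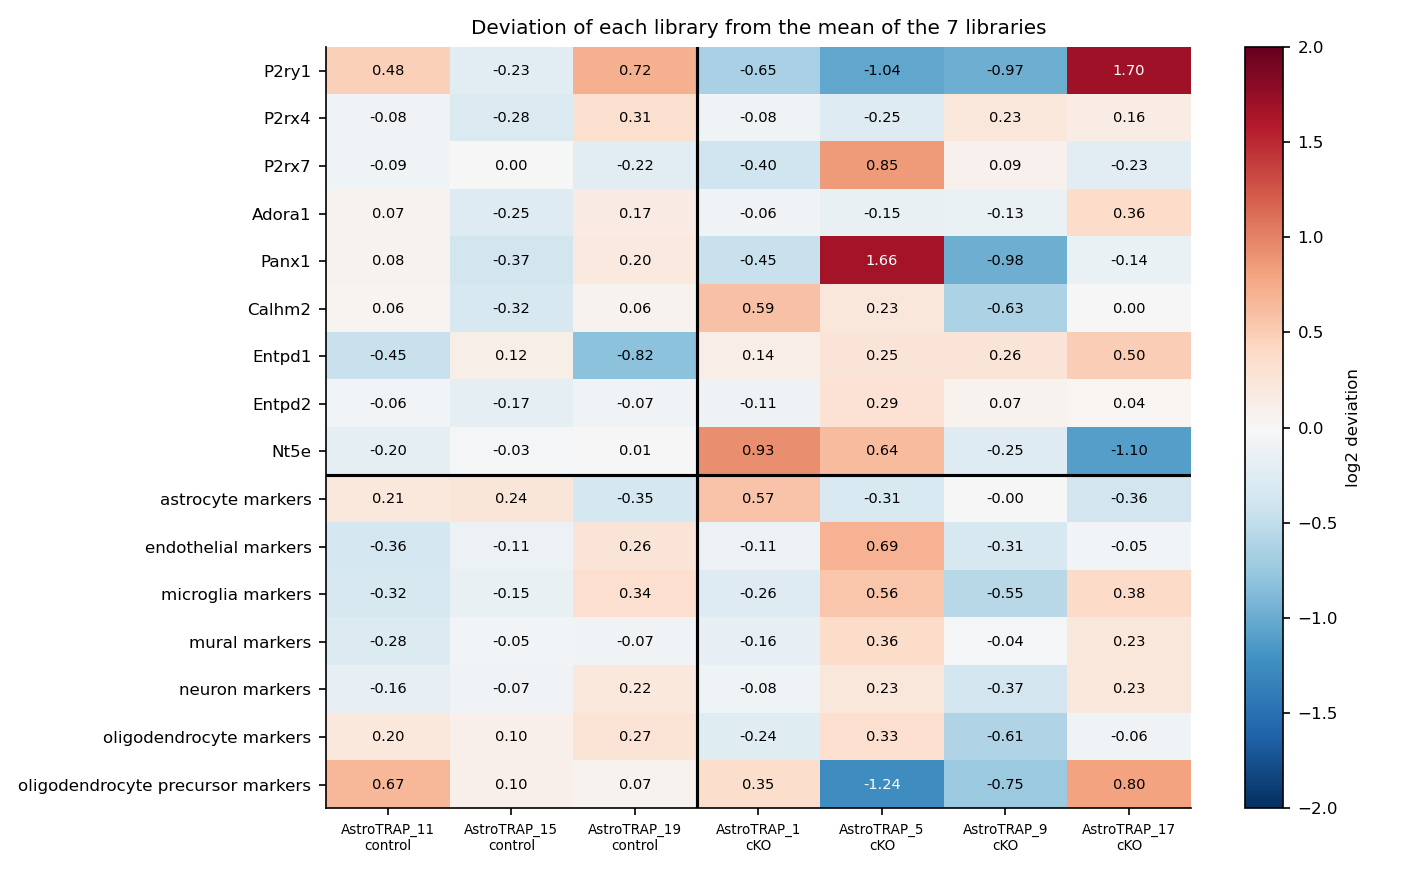
Deviation of each library from the mean of the 7 TRAP libraries on the log2 scale, for the 9 tested genes (above the line, log2 of CPM plus 0.5) and for summed CPM of the cell type markers (below the line), with control libraries left of the vertical line. AstroTRAP_5 is high for Panx1 (1.66) and P2rx7 (0.85) and for endothelial (0.69) and microglial (0.56) markers, and AstroTRAP_17 is high for P2ry1 (1.70).

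The other genes of the pathway were taken from a list ordered by role. Of 46 gene symbols, 45 were in the table and 26 had enough counts to be tested. None passed the adjusted threshold in either direction with edgeR's quasi-likelihood test, where 0.0451% of all genes did, and 1 of the 26, Ano6, had an unadjusted p under 0.05. Of all genes, 2.58% had such a p with the quasi-likelihood test. The count among the 26 was 3 with the exact test of edgeR (Ano6, Entpd3 and P2ry13) and 2 with DESeq2 (Ano6 and P2ry13). The share over all genes was not taken for the exact test or DESeq2, so no excess can be read from those counts. The estimates were above 0 for 16 genes and below 0 for 10, with a median of 0.11 on the log2 scale. Of the genes listed in the table, 7 had 0 counts in every library, among them P2rx2, Panx3, Calhm1 and Entpd8. Calhm3 had at most 0.0497 CPM. These genes, and Gja1, Slc29a2 and Adk below, were chosen for mention after their values were seen.

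Among 12 further nucleotide receptors, 5 were tested, and the largest estimate was that of P2ry13, an ADP receptor found on microglia and other myeloid cells. It had 2.08, 0.945 and 0.481 CPM in control and 2.84, 11.3, 1.69 and 1.41 CPM in cKO libraries. AstroTRAP_5 was again the high library, and the log2 fold change of 1.87 (SE 0.85, unadjusted p = 0.0519 by edgeR) became 0.74 without it. DESeq2 gave P2ry13 an unadjusted p = 0.0205 and an adjusted p = 0.9998. Both tested adenosine receptors overlapped between genotypes, with Adora2a, which couples to stimulatory G proteins, giving the larger log2 fold change (0.44, SE 0.63).

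Of 13 further release channels and partners, 9 were tested. Gja1, which encodes connexin 43, the main astrocytic gap junction protein, and also counts among the astrocyte markers, had 1134 CPM on average in control and 1139 CPM in cKO libraries (log2 fold change 0.0064, SE 0.13). The largest estimate belonged to Ano6, which encodes a calcium-activated channel and lipid scramblase. Its levels were 9.15, 14.4 and 13.2 CPM in control and 7.28, 4.61, 8.55 and 4.59 CPM in cKO libraries. All 4 cKO libraries lay below the 3 control libraries, with a log2 fold change of -0.97 (SE 0.32, unadjusted p = 0.0119, adjusted p = 0.9996, both by edgeR). Over all genes, 5.11% had groups that did not overlap in either direction. Leaving out any single library kept the estimate for Ano6 between -1.16 and -0.84, and the lowest adjusted p in any alternative fit was 0.905, with DESeq2.

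Of 7 further ectonucleotidases in the table, 4 were tested. Entpd3, which encodes a further ATP and ADP hydrolase found mainly on neurons, had 3.13, 2.07 and 1.78 CPM in control and 0.987, 0.426, 1.54 and 0.667 CPM in cKO libraries. These groups did not overlap, with the cKO libraries lower, and the log2 fold change was -1.36 (SE 0.70, unadjusted p = 0.0787 from edgeR). Among 10 genes of adenosine uptake and conversion, 6 were tested. The largest estimate was that of Slc29a4, an equilibrative transporter of adenosine and monoamines, at 2.10 (SE 1.31), which rested on 80 counts in AstroTRAP_5 and 0 to 12 counts in the other libraries. Slc29a2, which encodes another equilibrative nucleoside transporter, went the other way from Ano6 and Entpd3, at 14.99, 17.8 and 16.35 CPM in control and 19, 18.04, 19.6 and 26.98 CPM in cKO libraries. All 4 cKO libraries lay above the 3 control libraries, with a log2 fold change of 0.35 (SE 0.20, unadjusted p = 0.113 by edgeR). Of the 26 genes, 3 thus had groups that did not overlap, 1 with cKO higher and 2 with cKO lower. Of all genes tested, 5.11% did not overlap in either direction, and 2.35% had every cKO library above every control library. Adk, which encodes adenosine kinase, the main route of adenosine clearance in astrocytes, had 579.5 ± 109 CPM (SD, n = 3) in control and 537.5 ± 164 CPM (SD, n = 4) in cKO libraries, a difference smaller than either SD.

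**Figure D4:**
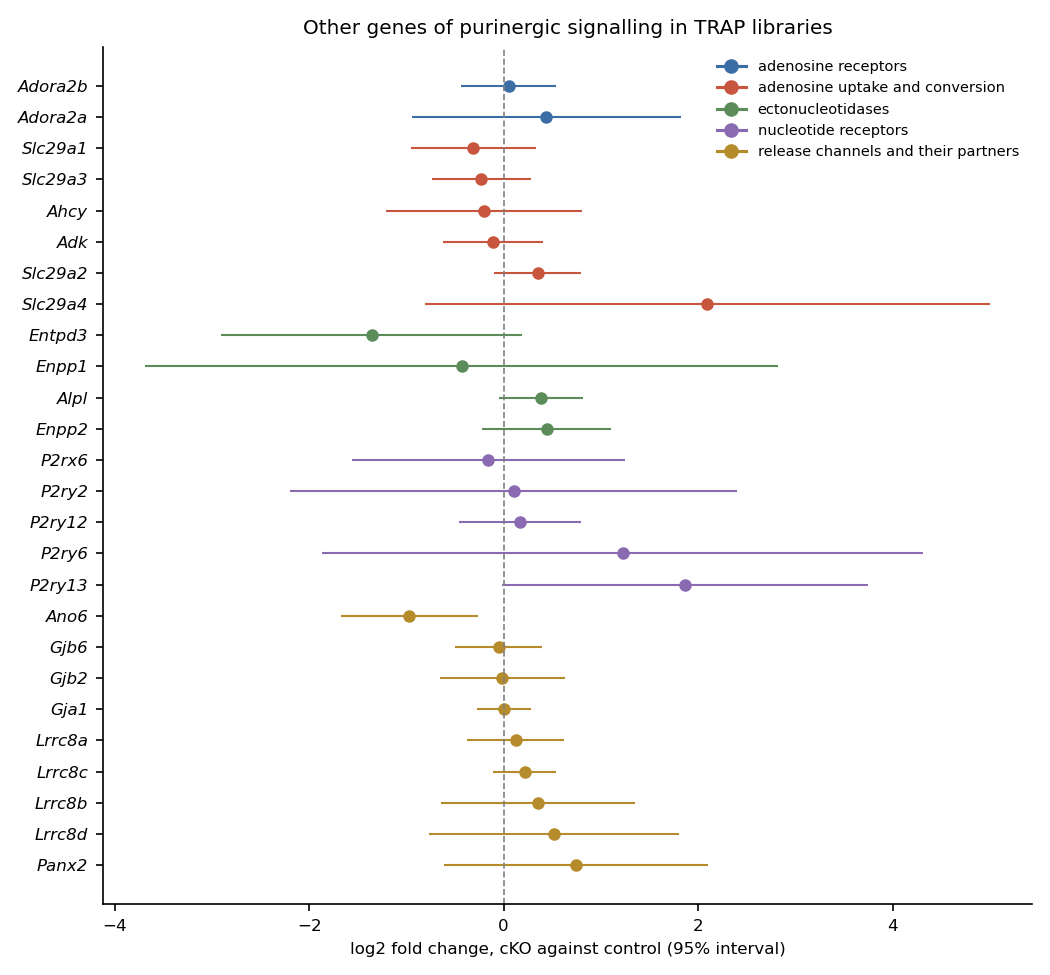
Log2 fold change, cKO against control, with 95% interval for the 26 tested genes of purinergic signalling outside the 10 genes above, coloured by role. Ano6 (-0.97) is the gene whose interval excludes 0 before adjustment, and no gene passed after adjustment over all genes.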

How the data were processed

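TRAP libraries of mouse cortex were compared between GLUT1 cKO and control mice. Per the study's methods and its processing notes, the authors trimmed reads with cutadapt (1.15) and estimated counts with kallisto (0.44.0) on GENCODE transcripts of GRCm38. The deposited values are estimated counts summed per gene symbol, not normalized. Of 18 columns, 11 were not used because their names did not tie them to a group. The 7 libraries were grouped by sample names that the study gives. Estimated counts were rounded, filtered with filterByExpr, scaled by TMM and tested with the quasi-likelihood test of edgeR (4.0.16, R 4.3.3), with Benjamini-Hochberg adjustment at 0.05. The test was checked on simulated data. DESeq2 (1.42.0), the exact test of edgeR, other scalings, other filters and leaving out each library were alternatives. CPM are on the TMM scale. Positions are from RefSeq (GRCm38.p6). The members and lists were chosen with earlier results of these data known. From each role the pathway gene with the largest absolute fold change was named. Naming by level per length was not done, since transcript lengths were not available here, and levels are not compared between genes. Libraries of the same genotype differed by far more than sampling noise (chi-square per degree of freedom at least 32.9). Intervals on counts and floors cover counting error only. A permutation test of 3 against 4 libraries cannot give a p below 0.0571, so none was used.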

Additional observations from a re-analysis of the deposited data

Results flagged for a closer look

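Among the 4 cKO libraries, 5 of 36 genes examined had 1 library far from the other 3 by Dixon's criterion. For normally distributed values chance alone would give about 1 in 20, or 1.8 genes. That condition was not checked for CPM, and all 5 were flagged on the high side, 3 of them in AstroTRAP_5. No excess over chance is therefore claimed. The high library was AstroTRAP_17 for P2ry1, at 3.63 CPM against 0.116 to 0.309 CPM in the other cKO libraries. AstroTRAP_17 was also high for Adora1, at 209.9 CPM against 146 to 156 CPM.

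AstroTRAP_5 was the high library for the other 3 genes. Panx1 was at 5.11 CPM there against 0.397 to 1.11 CPM, and P2ry13 was at 11.3 CPM against 1.41 to 2.84 CPM. Enpp2, which encodes autotaxin and is abundant in choroid plexus and oligodendrocytes, was at 148 CPM against 53.4 to 67.9 CPM. Enpp2 was chosen for mention after its values were seen. The summed oligodendrocyte markers were also highest in AstroTRAP_5, at 892 CPM against 465 to 678 CPM in the other cKO libraries. In the control libraries they summed to 757 to 856 CPM, while Enpp2 was at 55.8 to 66.0 CPM. The part of oligodendrocytes in the Enpp2 value was not tested.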

How the results depend on the processing

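None of the genes passed the adjusted threshold in any of the 14 alternative fits. The number of genes called over the whole table was 6 with the quasi-likelihood test and TMM, and 7 with that test scaled by library size only. It was 18 with the exact test of edgeR and 21 with DESeq2, and lay between 4 and 6 with a library left out. The cause was not tested. The estimates for Entpd1, Entpd2 and Nt5e stayed above 0 in every fit that tested them (13 of the 14 for Nt5e). Adora1 turned to -0.0030 with upper-quartile scaling. With each library left out, the log2 fold change ranged from -2.59 to 0.23 for P2ry1, from -0.11 to 0.20 for P2rx4, from -0.072 to 0.45 for P2rx7, from -0.13 to 0.097 for Adora1, from -0.72 to 0.90 for Panx1 and from -0.041 to 0.39 for Calhm2. No paired analysis was possible because the columns carry none of the replicate numbers of the labels. The order of levels per length was not run, since transcript lengths were not available here. Low counts limit P2ry1, Panx1, Nt5e and Slc17a9. Without the count filter Slc17a9 was tested too and did not pass (unadjusted p = 0.0739 by edgeR).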
